A study of Homo sapiens with 18 samples.

Results

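The genes followed here are 4 chemokines and 5 chemokine receptors of myeloma cells, across 3 human multiple myeloma cell lines: the ligands CCL3, CCL4, CCL5 and CXCL10, and the receptors CCR1, CCR2, CXCR3, CCR10 and CXCR4. The 9 genes were taken by symbol from a table of raw RNA-seq counts that holds 28395 genes, and all 9 passed the filter on low counts that left 14571 genes for testing. H929, MM1S and OPM2 are lines grown from malignant plasma cells of patients. Each of the 9 groups had 2 libraries. Cells carrying inducible CRISPR-Cas9 against IKZF1 (all 3 lines) or IKZF3 (OPM2) were compared with empty vector cells of their own line. Doxycycline at 1 µg/mL for 72 h, the inducer of the guide, was given to the knockout cells and to the empty vector cells alike. Lenalidomide at 10 µM for 72 h was compared with untreated control cells in OPM2, and no doxycycline is named for these 2 groups. Live cells were sorted on scatter before RNA extraction. The sources used here do not say whether the libraries of a group are separate cultures, clones or guides, so the p-values measure the spread between these libraries, which may be technical.

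Chemokines are small secreted proteins that steer cells by binding G protein-coupled receptors. CXCR4 holds plasma cells and myeloma cells in the bone marrow by answering CXCL12 from stromal cells, and CCR10 guides plasma cells towards CCL27 and CCL28. CCL3 and CCL4 (MIP-1 alpha and MIP-1 beta) are released by myeloma cells and favour bone-resorbing osteoclasts. CCL3 and CCL5 both bind CCR1, CCL2 binds CCR2, and CXCL10 binds CXCR3. IKZF1 (Ikaros) and IKZF3 (Aiolos) are zinc finger transcription factors of lymphoid cells, and lenalidomide directs both proteins to degradation through cereblon.

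RefSeq tables of build GRCh38.p14 held the bases upstream of the start for 6 of the 9 genes, and those for CCR10, CCL4 and CCL5 were not matched. The CXCL10 gene lies at chr4:76021118-76023497 on the minus strand. Its 250 upstream bases, chr4:76023498-76023747 on the minus strand, are shown because CXCL10 was the only one of the 6 in which an interferon response element core or a kappaB consensus was found. The capitals mark these matches.
CXCL10 upstream: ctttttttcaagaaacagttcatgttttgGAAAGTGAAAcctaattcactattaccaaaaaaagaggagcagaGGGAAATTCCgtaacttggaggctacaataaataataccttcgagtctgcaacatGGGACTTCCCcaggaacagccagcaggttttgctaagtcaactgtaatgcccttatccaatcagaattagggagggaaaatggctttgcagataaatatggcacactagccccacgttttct
The interferon response element core, like the other motifs searched on both strands, lay 221 to 212 bases upstream of the CXCL10 start. The same core occurs in 3.02% of 35116 windows of this kind. The kappaB consensus, which occurs in 9.96% of the windows, matched at 177 to 168 and at 122 to 113 bases upstream. The short GGGAA core that Ikaros proteins can bind was present within both kappaB matches and again 49 to 45 bases upstream, but it occurs in 59% of windows. A match of letters describes the sequence and was not tied to any binding here.

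CCL3 (chr17:36088256-36090143, minus strand) has a near-identical copy, CCL3L3, and reads that fit both copies can be split between them or lost in counting. Their upstream stretches, chr17:36090144-36090393 for CCL3 and chr17:36196759-36197008 for CCL3L3, both on the minus strand, are shown to give a sense of this likeness. The capitals mark bases with no identical partner in the other copy.
CCL3 upstream: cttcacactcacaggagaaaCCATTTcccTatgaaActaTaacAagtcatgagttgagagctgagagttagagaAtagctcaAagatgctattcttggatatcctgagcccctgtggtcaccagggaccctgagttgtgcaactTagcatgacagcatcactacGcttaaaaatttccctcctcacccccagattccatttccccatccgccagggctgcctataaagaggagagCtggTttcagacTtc
CCL3L3 upstream: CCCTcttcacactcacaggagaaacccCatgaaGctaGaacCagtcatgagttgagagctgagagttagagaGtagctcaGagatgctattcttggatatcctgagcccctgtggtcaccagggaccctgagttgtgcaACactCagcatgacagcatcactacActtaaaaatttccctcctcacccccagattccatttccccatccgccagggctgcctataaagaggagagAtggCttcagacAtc
Of the 250 bases, 233 were identical (93.2%). These bases lie upstream of the transcript, so they do not show how many reads fit both copies, and the transcripts were not compared. CCL4 (chr17:36103827-36105614, plus strand) likewise has the copy CCL4L2. Because reads can fit both copies, the values of CCL3 and CCL4 are uncertain as to the copy they come from, and the copies are given beside them.

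Libraries held 11.8 to 24.19 M counts. Replicate 1 of the OPM2 empty vector group stood apart: it had a scaling factor of 0.8603, against 0.9512 to 1.067 in the other libraries, and 1638 of the 14571 genes differed more than 2-fold between the 2 OPM2 empty vector libraries, against 258 to 980 in the other groups. Results of both OPM2 knockouts rest on this group. The next widest pair was the H929 knockout libraries, called a and b, with 980 genes. The level of IKZF1 itself was not lowered in the knockouts: IKZF1 had 124 and 188 CPM (counts scaled to library size) in H929 knockout cells against 128 and 120 CPM with the empty vector, 312 and 333 CPM in MM1S knockout cells against 179 and 185 CPM, and 213 and 225 CPM in OPM2 knockout cells against 94.3 and 188 CPM. IKZF3 had 69.3 and 66.6 CPM in the OPM2 IKZF3 knockout against 44.0 and 50.3 CPM with the empty vector. A count over the whole gene does not show the small edits that Cas9 leaves, so it gives no check of the knockout labels. All 9 plasma cell markers, SDC1 and TNFRSF17 among them, were detected in every library, with summed levels of 7554 to 23230 CPM.

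**Figure D1:**
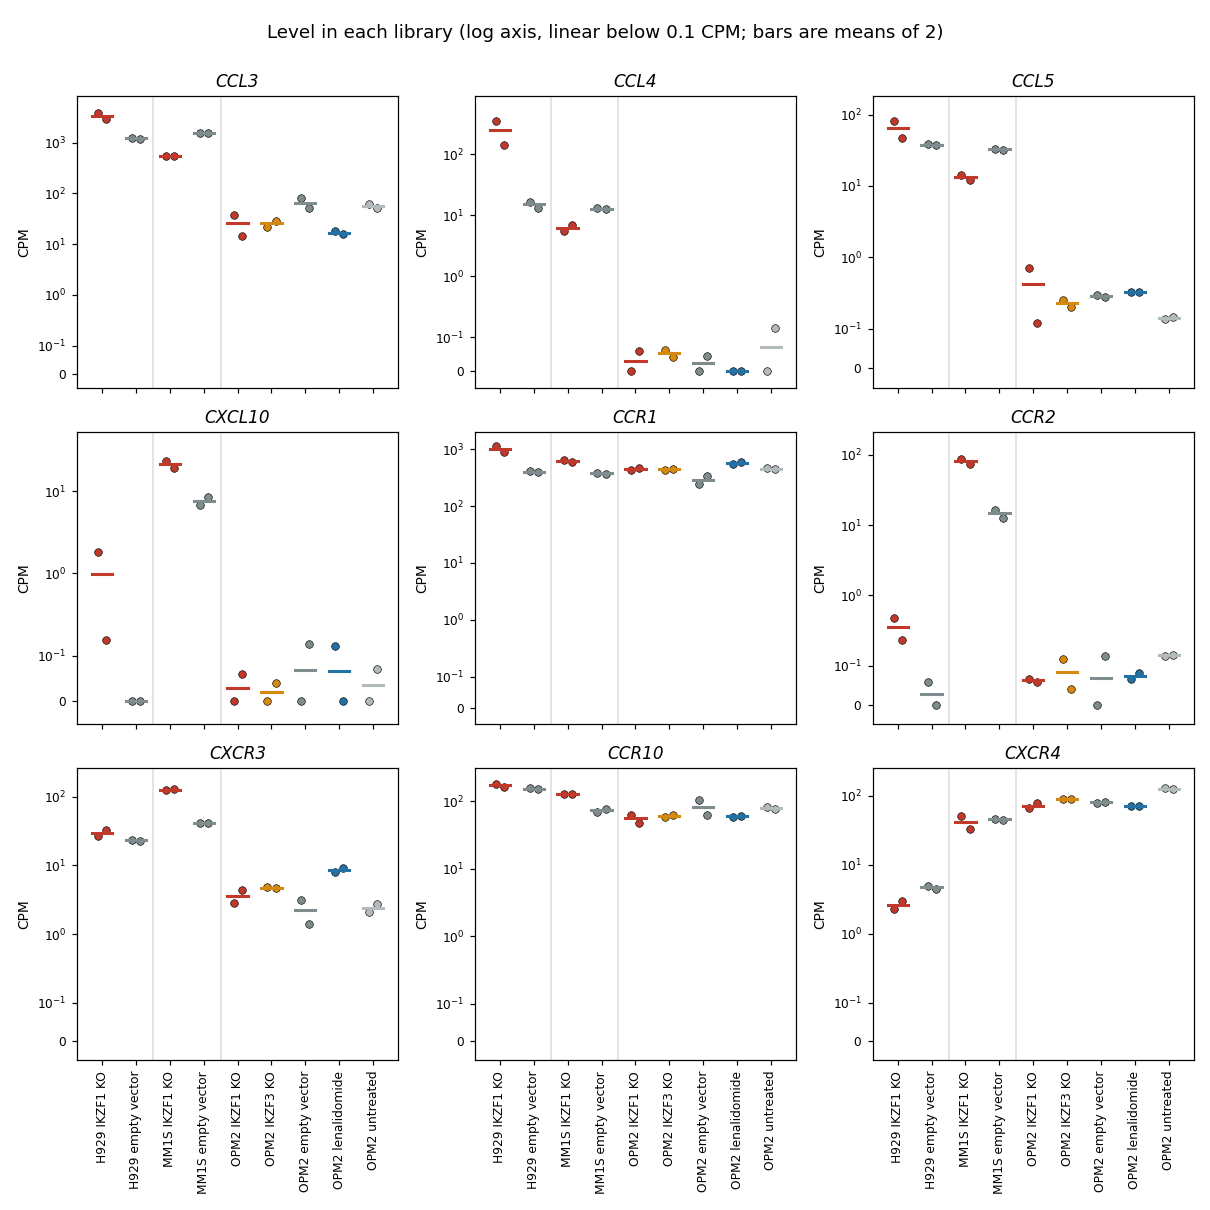
Level of each of the 9 genes in CPM (log axis, linear below 0.1 CPM) in the 18 libraries. Points are single libraries, bars are the means of 2, and vertical lines separate H929, MM1S and OPM2. CCL3 reaches 3918 and 2888 CPM in H929 knockout cells and lies between 14.6 and 80.1 CPM in all OPM2 libraries, while CCR1 stays between 239 and 1148 CPM everywhere.

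Among the 9 genes, 6 were called higher (all 4 ligands, CCR1 and CCR2) and 1 lower (CXCR4) in the H929 knockout, where 5.92% of the 14571 genes tested were called higher and 4.6% lower. In the MM1S knockout 5 were higher (CXCL10, CCR1, CCR2, CXCR3 and CCR10) and 3 lower (CCL3, CCL4 and CCL5), beside 15.6% and 12.6% of all genes. In the OPM2 IKZF1 knockout 1 was higher (CCR1) and 2 lower (CCL3 and CCR10), beside 16.2% and 20% of all genes, and in the OPM2 IKZF3 knockout 2 were higher (CCR1 and CXCR3) and 1 lower (CCL3), beside 16.2% and 20.6%, so the OPM2 knockout shares were near the background. With lenalidomide 1 was higher (CXCR3) and 2 were lower (CCL3 and CXCR4), beside 5.76% and 4.58% of all genes. The median log2 fold change of the 9 was 1.35 in the H929 knockout, 0.71 in the MM1S knockout, -0.16 in each OPM2 knockout and -0.41 with lenalidomide, while that of all genes tested lay between -0.03 and 0.00. With only the compared groups in the fit, 3 of the 9 were called in the H929 knockout, 0 in either OPM2 knockout and 5 with lenalidomide. The shares of all genes given here belong to the fit over all 18 libraries, so these last counts have no background beside them. For the IKZF1 effect averaged over the 3 lines, CCR1, CXCR3 and CCR2 were higher and CXCR4 was lower, beside 15.5% and 18.6% of all genes, and the CXCR4 call was lost without H929 empty vector library 1 or knockout library a (adjusted p of up to 0.0799), that of CCR2 without any 1 of 4 libraries (up to 0.11). In bulk RNA, fewer cells that express a gene and less RNA per cell cannot be told apart.

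In H929 cells, all 4 ligands were higher after IKZF1 knockout than with the empty vector. The largest well-counted rise was that of CCL4, which had 350 and 142 CPM in the knockout libraries, against 16.7 and 13.3 CPM in the empty vector libraries. The groups did not overlap, and the log2 fold change was 4.04 ± 0.35 (SE; adjusted p = 4.22e-06 by edgeR's quasi-likelihood test, as for every adjusted p given for a gene here unless another test is named), a 16.4-fold rise. Of the knockout libraries, a was well above b.

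CCL3 rose in H929 cells as well. Its level was 3918 and 2888 CPM in the knockout libraries, against 1237 and 1201 CPM with the empty vector. The log2 fold change was 1.48 ± 0.30 (adjusted p = 0.00479), or 2.79-fold. The copies moved the same way and further: CCL3L3 had 1042 and 374 CPM in knockout cells, against 71.6 and 69.4 CPM (3.33 ± 0.36, adjusted p = 2.02e-05), and CCL4L2 had 112 and 20.1 CPM, against 3.28 and 2.43 CPM (4.53 ± 0.58, adjusted p = 0.000106). With the counts of each gene and its copy added together, an alternative chosen after seeing the data, the changes were 1.67 ± 0.31 for CCL3 (adjusted p = 0.00247) and 4.13 ± 0.37 for CCL4 (adjusted p = 3.54e-06). The CCL3 call was lost without either empty vector library or without knockout library a (adjusted p of 0.0513 to 0.0594), and the change was 1.24 without knockout library a.

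CCL5 (RANTES; chr17:35871491-35880360, minus strand), a ligand of CCR1 and CCR3, had 82.1 and 47.5 CPM in H929 knockout cells, against 38.5 and 37.3 CPM with the empty vector. Its rise of 0.77 ± 0.23 on the log2 scale was just past the threshold (adjusted p = 0.0471). The call was lost when any 1 of 13 libraries was left out (adjusted p of 0.0633 to 0.542), and without knockout library a the change was 0.33 ± 0.23. CXCL10, which is known for its induction by interferons, was absent from both H929 empty vector libraries, at 0 and 0 counts, while the knockout libraries held 23 and 2 counts. Against a floor of 3 counts over the empty vector group, CXCL10 was at least 12.1-fold higher in the knockout (adjusted p = 0.0156). It was no longer called without knockout library a (adjusted p = 0.321) or without empty vector library 1 or 2 (0.0889 and 0.107).

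In MM1S cells the 3 CC ligands went the other way. CCL3 had 541 and 535 CPM in MM1S knockout cells, against 1547 and 1585 CPM with the empty vector. The groups lay far apart with little spread, and the log2 fold change of CCL3 was -1.54 ± 0.30 (adjusted p = 0.00152). CCL5 had 14.5 and 12.2 CPM in the knockout, against 33.4 and 32.1 CPM, and fell by 1.30 ± 0.25 (adjusted p = 0.00128). CCL4 had 5.43 and 6.95 CPM, against 12.98 and 12.66 CPM, and fell by 1.06 ± 0.37 (adjusted p = 0.0463). The copy CCL3L3 fell too, with 116 and 91.5 CPM in the knockout against 270 and 268 CPM with the empty vector (log2 fold change of -1.37 ± 0.33, adjusted p = 0.00649, or 0.0817 without knockout library b). CCL4L2 had 11.7 and 10.4 CPM, against 20.2 and 20.8 CPM, and was not called (-0.89 ± 0.51, adjusted p = 0.216). The CCL3 and CCL5 calls held without any 1 library, whereas the CCL4 call was lost without any 1 of 14 libraries (adjusted p of 0.0509 to 0.239, with changes of -1.24 to -0.88).

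CXCL10 did not follow the CC ligands in MM1S cells. It had 23.3 and 19.2 CPM in the knockout libraries, against 6.82 and 8.44 CPM with the empty vector, and rose by 1.48 ± 0.41 (adjusted p = 0.0153). The groups did not overlap, but the call was lost when any 1 of the 4 MM1S libraries was left out (adjusted p of 0.0539 to 0.135) and with the DESeq2 Wald test (adjusted p = 0.0594). ART3 lies over CXCL10 on the opposite strand in GENCODE 29, and no strand setting of the counting was found in the labels.

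With the empty vector, OPM2 cells held less CCL3, CCL4 and CCL5 than H929 and MM1S cells, and less CXCL10 than MM1S cells. Among the ligands CCL3, CCL4, CCL5 and CXCL10, only CCL3 had more than 13 counts in an OPM2 group, and it was lower in all 3 treated groups. It had 37.2 and 14.6 CPM in the IKZF1 knockout and 22.2 and 29 CPM in the IKZF3 knockout, against 80.1 and 50.9 CPM with the empty vector. With lenalidomide it had 17.96 and 15.57 CPM, against 61.7 and 52.0 CPM in untreated cells. None of the 6 treated libraries reached the lowest control library. The log2 fold change of CCL3 was -1.34 ± 0.31 in the IKZF1 knockout (adjusted p = 0.00544), -1.34 ± 0.31 in the IKZF3 knockout (adjusted p = 0.00497) and -1.76 ± 0.32 with lenalidomide (adjusted p = 0.00262). The 2 knockout values share their empty vector libraries. Without empty vector replicate 1, the changes were -0.95 ± 0.41 in the IKZF1 knockout (adjusted p = 0.14) and -0.94 ± 0.40 in the IKZF3 knockout (adjusted p = 0.131). Without IKZF3 knockout library a, the change in that knockout was -1.17 ± 0.40 (adjusted p = 0.0589).

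The copy CCL3L3 was too low in OPM2 to be read as clearly. It had 24 and 13 counts in the IKZF1 knockout and 11 and 7 counts in the IKZF3 knockout, against 21 and 19 counts with the empty vector. With lenalidomide CCL3L3 had 6 and 8 counts, against 33 and 19 counts in untreated cells. It was called in none of the 3 comparisons (log2 fold changes of 0.005 ± 0.67, -1.33 ± 0.78 and -1.50 ± 0.80, adjusted p of 1, 0.199 and 0.294). CCL3 summed with CCL3L3 remained called in all 3, at -1.30, -1.34 and -1.75 (adjusted p = 0.00703, 0.00568 and 0.00319).

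CCL4 had 0 to 2 counts, CXCL10 1 to 3 counts and CCL5 5 to 13 counts in each OPM2 group, and changes of these ligands were not detectable at this depth in OPM2.

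Among the receptors, CCR1 (chr3:46201711-46208313, minus strand) was the gene that rose with IKZF1 knockout in every line when set against the empty vector. In H929 cells CCR1 had 1148 and 888 CPM in the knockout, against 405 and 394 CPM, a rise of 1.35 ± 0.15 on the log2 scale (adjusted p = 3.2e-05). In MM1S cells it had 639 and 593 CPM, against 385 and 366 CPM (0.71 ± 0.15, adjusted p = 0.00263). In OPM2 cells it had 435 and 462 CPM in the IKZF1 knockout and 437 and 445 CPM in the IKZF3 knockout, against 239 and 341 CPM with the empty vector. Those rises were 0.63 ± 0.15 (adjusted p = 0.00606) and 0.60 ± 0.15 (adjusted p = 0.00735). No knockout library overlapped its empty vector group, and all 4 calls held without any 1 library. Averaged over the lines, the IKZF1 effect on CCR1 was 0.90 ± 0.09 (adjusted p = 4.79e-06). Part of CCR1 is overlapped by CCR3 on the opposite strand in GENCODE 29.

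The OPM2 result depended on the control. CCR1 in untreated OPM2 cells, at 458 and 451 CPM, overlapped the IKZF1 knockout, and the empty vector group was lower than untreated cells (log2 difference of -0.65 ± 0.15, adjusted p = 0.0054). Of the 9 genes 0 were higher and 2 lower in this comparison (CCR1 and CXCR4), beside 19.5% and 15.8% of all genes, and with only the compared groups in the fit neither was called (adjusted p of 0.22 and 0.21). Against untreated cells the CCR1 change was -0.02 ± 0.15 in the IKZF1 knockout (adjusted p = 0.985) and -0.04 ± 0.15 in the IKZF3 knockout (adjusted p = 0.927). Vector and doxycycline cannot be told apart in the empty vector group. With lenalidomide CCR1 had 555 and 598 CPM, against 458 and 451 CPM in untreated cells, and was not called (0.34 ± 0.15, adjusted p = 0.192).

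**Figure D2:**
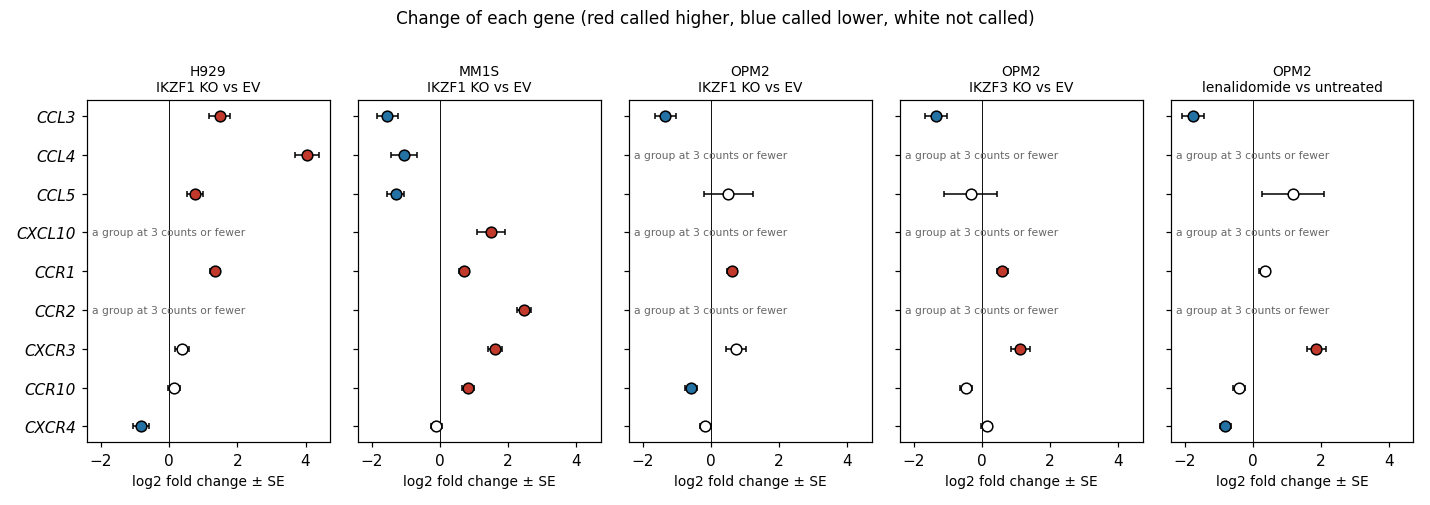
Log2 fold change (point) and its SE (bar) of the 9 genes in the 5 main comparisons. Red points are called higher, blue points lower and white points not called at an adjusted p of 0.05, and entries with 3 counts or fewer in a group are left without a point. CCL3, CCL4 and CCL5 are red in H929 and blue in MM1S, while CCR1 is red in all 4 knockout comparisons.

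CCR2 (chr3:46354111-46360940, plus strand), the receptor for CCL2, had most of its counts in MM1S. It had 88.1 and 73.5 CPM in MM1S knockout cells, against 16.6 and 12.8 CPM with the empty vector, and rose by 2.46 ± 0.21 (5.49-fold, adjusted p = 1.18e-06). In H929 cells CCR2 had 6 and 3 counts in the knockout against 1 and 0 counts, a ratio of 13.1 with a 95% counting interval of 1.81 to 572 (adjusted p = 0.0387). That call was lost without any 1 of 9 libraries (adjusted p of 0.0507 to 0.288). Each OPM2 group held 2 to 5 counts of CCR2.

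CXCR3 (chrX:71615919-71618511, minus strand), the receptor of the interferon-induced ligands CXCL9, CXCL10 and CXCL11, rose in MM1S knockout cells and with lenalidomide in OPM2 cells. In MM1S it had 125 and 130 CPM in the knockout, against 42.2 and 41.6 CPM (1.61 ± 0.20, adjusted p = 4.55e-05). With lenalidomide it had 8.16 and 9.16 CPM in OPM2 cells, against 2.11 and 2.72 CPM in untreated cells, a rise of 1.86 ± 0.27 (3.63-fold, adjusted p = 0.000408). In the OPM2 IKZF3 knockout CXCR3 had 4.78 and 4.64 CPM, against 3.16 and 1.42 CPM with the empty vector (1.12 ± 0.28, adjusted p = 0.00753). That change was 0.57 ± 0.25 without empty vector replicate 2 (adjusted p = 0.0635) and 0.98 ± 0.28 against untreated cells (adjusted p = 0.0408). The OPM2 IKZF1 knockout libraries, at 2.80 and 4.35 CPM, overlapped the empty vector group and CXCR3 was not called (0.73 ± 0.30, adjusted p = 0.066). In H929 knockout cells, 27.2 and 33.0 CPM lay above the 23.7 and 22.7 CPM of the empty vector libraries, and the change was not called either (0.38 ± 0.21, adjusted p = 0.312).

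CCR10 (chr17:42678889-42681843, minus strand) went opposite ways in MM1S and OPM2. It had 128.5 and 128.6 CPM in MM1S knockout cells, against 70.5 and 75.5 CPM (0.82 ± 0.18, adjusted p = 0.00332). In the OPM2 IKZF1 knockout CCR10 had 63.0 and 48.2 CPM, against 103 and 63.4 CPM with the empty vector, and its log2 fold change was -0.58 ± 0.18 (adjusted p = 0.0219). The higher knockout library lay just under the lower empty vector library, and the change was -0.16 ± 0.12 without empty vector replicate 1 (adjusted p = 0.395) and -0.40 ± 0.21 without knockout library b (adjusted p = 0.184). Against untreated cells it was -0.51 ± 0.18 (adjusted p = 0.102). In H929 cells CCR10 had 180 and 164 CPM in the knockout, against 157 and 151 CPM, and was not called (0.16 ± 0.18, adjusted p = 0.666). The OPM2 IKZF3 knockout, at 57.7 and 62.0 CPM, and lenalidomide, at 59.5 and 59.5 CPM against 81.7 and 76.9 CPM in untreated cells, gave values of -0.47 ± 0.18 (adjusted p = 0.0516) and -0.41 ± 0.18 (adjusted p = 0.184). An antisense gene overlaps CCR10 on the opposite strand, as it does for CCL3 and CCL5.

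CXCR4 (chr2:136114349-136118149, minus strand), the bone marrow homing receptor, was lower in lenalidomide-treated OPM2 cells, with 71.6 and 71.4 CPM against 128 and 124 CPM in untreated cells. The log2 fold change was -0.81 ± 0.16 (adjusted p = 0.00447), and it missed the threshold narrowly without either lenalidomide library (adjusted p of 0.0506 and 0.0509). CXCR4 was also lower in H929 knockout cells, at 2.26 and 3.01 CPM against 4.93 and 4.46 CPM (-0.83 ± 0.24, adjusted p = 0.0368), a call that was lost without any 1 of 9 libraries (adjusted p of 0.0507 to 0.286). In MM1S cells the knockout libraries, at 51.2 and 32.9 CPM, spanned the 46.0 and 44.9 CPM of the empty vector libraries (-0.11 ± 0.17, adjusted p = 0.678). The OPM2 knockouts, at 66.0 and 77.3 CPM for IKZF1 and 88.9 and 88.3 CPM for IKZF3, lay on either side of the empty vector libraries at 79.1 and 81.4 CPM, and neither was called (-0.16 ± 0.16, adjusted p = 0.451, and 0.14 ± 0.16, adjusted p = 0.521). Against untreated cells the CXCR4 change in the OPM2 IKZF1 knockout was -0.81 ± 0.16 (adjusted p = 0.00589) and in the IKZF3 knockout -0.51 ± 0.16 (adjusted p = 0.0672). The empty vector group differed from untreated cells by -0.65 ± 0.16 on the log2 scale (adjusted p = 0.00737).

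**Figure D3:**
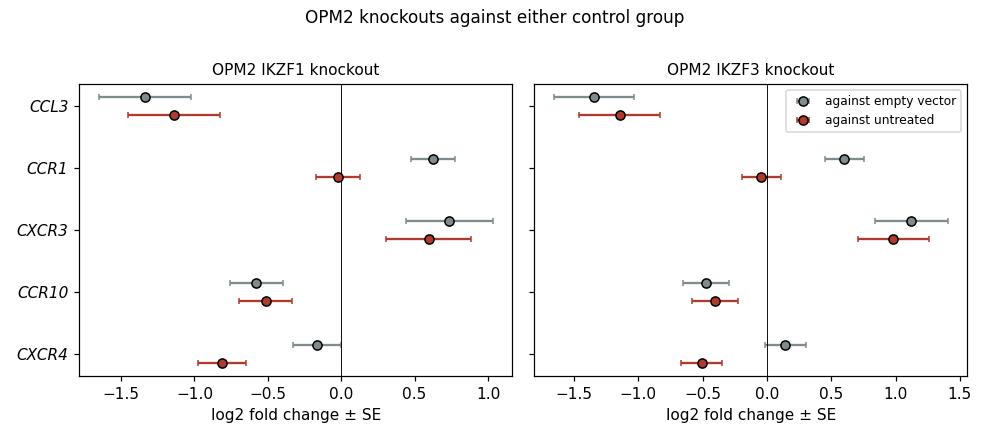
Log2 fold change (point) and its SE (bar) of 5 genes in the OPM2 IKZF1 and IKZF3 knockouts, against the empty vector group (grey) or untreated cells (red). CCL3 lies below 0 against either control in both knockouts, while CCR1 moves to -0.02 and -0.04 and CXCR4 moves to -0.81 and -0.51 against untreated cells.

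The difference between the H929 and MM1S knockout effects was tested directly, and it was called with a higher value in H929 for 3 of the 9 genes and with a lower one for 1, beside 6.94% and 8.91% of all genes. The effect in H929 exceeded that in MM1S by 5.09 ± 0.50 on the log2 scale for CCL4 (adjusted p = 1.51e-05), by 3.02 ± 0.43 for CCL3 (adjusted p = 0.000229) and by 2.07 ± 0.34 for CCL5 (adjusted p = 0.000804). For CXCR3 the difference was -1.23 ± 0.29 (adjusted p = 0.00936). All 4 calls held without any 1 library. The copies differed in the same direction, by 4.70 ± 0.49 for CCL3L3 (adjusted p = 1.58e-05) and 5.42 ± 0.76 for CCL4L2 (adjusted p = 0.000224). The effect was greater in H929 than in OPM2 for 2 of the 9 genes and smaller for 0, beside 6.51% and 6.14% of all genes: CCL3 by 2.82 ± 0.44 (adjusted p = 0.0014, or 0.0666 with only the compared groups) and CCR1 by 0.72 ± 0.21 (adjusted p = 0.0397, lost without any 1 of 15 libraries at 0.0555 to 0.147). Between MM1S and OPM2 1 was greater, CCR10 by 1.39 ± 0.25 (adjusted p = 0.0022, or 0.054 with only the compared groups), and 0 were smaller, beside 11.8% and 8.94% of all genes.

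In OPM2 no difference between the IKZF1 and the IKZF3 knockout was called for the 9 genes by edgeR, beside 2.59% of all genes. The count was 0 at an unadjusted p under 0.05, and 0 with DESeq2 and with limma-voom. CXCR3 stood at 3.58 ± 1.1 CPM in the IKZF1 knockout and 4.71 ± 0.099 CPM in the IKZF3 knockout (SD, n = 2 each; log2 difference of -0.39 ± 0.26). No gene of the 9 was called for the lenalidomide effect minus the IKZF1 knockout effect by edgeR either, beside 0.281% of all genes. There CXCR4 and CXCR3 passed an unadjusted p of 0.05, with differences of -0.65 ± 0.23 (adjusted p = 0.103) and 1.12 ± 0.41 (adjusted p = 0.108). The DESeq2 Wald test called 2 and limma-voom called 0. The shares of all genes given here belong to the adjusted p of the edgeR fit. Counts by the other tests and at an unadjusted p have no background beside them.

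Many genes, several of the 9 among them, differed between lines. With the empty vector, 1 gene was higher (CCR10) and 4 were lower (CXCR4, CXCR3, CCR2 and CXCL10) in H929 than in MM1S, beside 32.9% and 30.3% of all genes. Both directions together, this count was near the background. CXCR4 had a log2 difference of -3.28 ± 0.19 (adjusted p = 2.22e-09), at 4.69 ± 0.33 CPM in H929 and 45.5 ± 0.77 CPM in MM1S (SD, n = 2 each). CXCL10 and CCR2 were nearly absent from H929: CXCL10 had 0 counts against 244 in MM1S (at least 94.5-fold lower), and CCR2 had 1 count against 477 (a ratio of 554 in favour of MM1S, interval of 99 to 21900). CCL3, CCL4, CCL5 and CCR1 were not called between these lines (adjusted p of 0.301, 0.584, 0.454 and 0.627). Compared with OPM2, H929 had 6 genes higher and 1 lower, beside 32.4% and 32.2% of all genes, and MM1S had 7 higher and 1 lower, beside 32.8% and 34.7%. CCR1 was among the higher genes in both, but its call was lost in H929 without empty vector library 1 of either line (adjusted p of 0.0528 to 0.0643) and in MM1S without any 1 of 11 libraries (0.0504 to 0.204). CXCR4 was the gene lower in both, with log2 differences of -4.10 ± 0.19 in H929 (adjusted p = 2.46e-10) and -0.82 ± 0.16 in MM1S (adjusted p = 0.000438). CCL5 was higher by 7.03 ± 0.39 in H929 and by 6.82 ± 0.40 in MM1S (adjusted p = 1.42e-09 and 1.53e-09). CCL4 summed with its copy was lower in H929 than in MM1S (log2 difference of -0.90 ± 0.34, adjusted p = 0.0331), whereas CCL4 alone had a log2 difference of 0.22 ± 0.34. Both copies were lower in H929 than in MM1S on their own, CCL3L3 by a log2 difference of -1.93 ± 0.34 (adjusted p = 0.000165) and CCL4L2 by -2.84 ± 0.57 (adjusted p = 0.00048), while CCL3 summed with CCL3L3 was not called (-0.51, adjusted p = 0.156).

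Ordered over the 9 groups, CXCR4 ran highest in untreated OPM2 cells, followed by the IKZF3 knockout and the empty vector, then by the IKZF1 knockout and lenalidomide, which overlapped. The MM1S groups, which overlapped each other, came next and the H929 groups last. CXCR3 had both MM1S groups on top, both H929 groups next and the 5 OPM2 groups at means of 2.29 to 8.66 CPM. For CCR10 the 2 H929 groups and the MM1S knockout led, and the remaining 6 groups had means of 55.6 to 83.1 CPM with several overlaps. CCR1 ran from a mean of 290 CPM in OPM2 empty vector cells to 1018 CPM in the H929 knockout, and the untreated, IKZF1 knockout and IKZF3 knockout groups of OPM2 overlapped in between. CCL3, CCL4 and CCL5 each had the H929 knockout first, then the H929 and MM1S empty vector groups, then the MM1S knockout, with every OPM2 group below.

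Levels of different genes can be compared only per transcript length, for which the authors' deposited table of log2 FPKM values was used. In that table CCL3 was the highest of the 9 in both lines that made it strongly, at a log2 FPKM of 10.47 for H929 and 11.33 for MM1S with the empty vector. CCR1 was the highest receptor in these 2 lines, at 7.21 and 7.29, followed by CCR10 at 6.98 and 5.87. In OPM2 empty vector cells CCR1 (6.68) and CCL3 (6.26) were close to CCR10 (5.94) and CXCR4 (5.28). CCL4 stood at 9.01 and 7.73 in the 2 H929 knockout columns, beside 11.78 and 11.70 for CCL3. The copy CCL3L3 stood at 6.50 for H929, 8.51 for MM1S and 0.89 for OPM2 with the empty vector, and CCL4L2 at 0.84, 3.97 and -3.68.

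**Figure D4:**
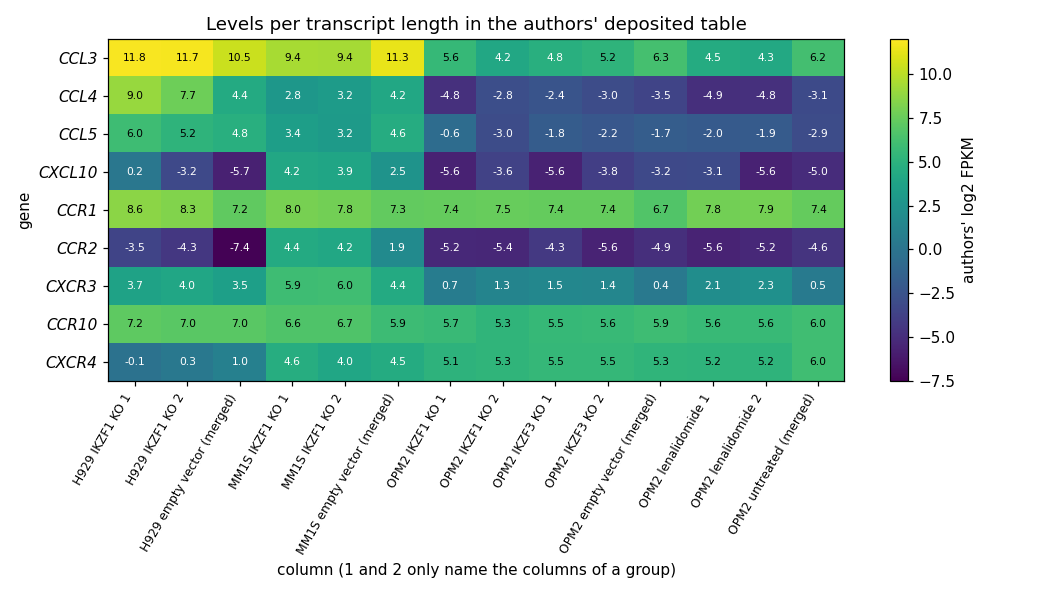
The authors' deposited log2 FPKM values of the 9 genes, with each control group merged into 1 column by the authors. Yellow is high and dark blue is low. CCL3 is the highest value in the H929 and MM1S columns (10.47 and 11.33 with the empty vector), and CXCR4 is low in H929 (0.98) but not in OPM2 (5.28).

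Other genes of the chemokine system were read from lists of 39 further ligands, 12 further receptors, 5 atypical receptors and 31 signalling and desensitising proteins. Most of the ligands and receptors were too low to test: 4 ligands, 3 receptors and 1 atypical receptor passed the filter. Among the receptors 1 of the 3 was called higher in the H929 knockout, 2 in the MM1S knockout, 1 in each OPM2 knockout and 1 with lenalidomide, with none lower. Of all genes 5.92%, 15.6%, 16.2%, 16.2% and 5.76% were called higher in these 5 comparisons. Of the 4 ligands, 2 were higher in the H929 knockout and 2 in the MM1S knockout, 1 was higher and 1 lower in the OPM2 IKZF1 knockout, and 0 were called in the IKZF3 knockout or with lenalidomide. Among these ligands, CCL2 and CXCL13 had too few counts in every control group to pass the low-count filter there. They passed through knockout or lenalidomide groups, so their calls as higher are not independent of the filter. CX3CR1, the fractalkine receptor, had 44.6 and 26.7 CPM in the OPM2 IKZF1 knockout and 26.1 and 55.2 CPM in the IKZF3 knockout, against 0.735 and 1.14 CPM with the empty vector. With lenalidomide it had 49.9 and 56.0 CPM, against 1.79 and 1.65 CPM in untreated cells. These rises were 5.18 ± 0.44 (adjusted p = 5.92e-06), 5.38 ± 0.44 (adjusted p = 5e-06) and 4.93 ± 0.41 (adjusted p = 2.19e-06) on the log2 scale, and they stayed called under every alternative tried. In MM1S knockout cells CX3CR1 had 178.5 and 124 CPM, against 1.94 and 1.65 CPM. H929 was the exception, with 3 and 0 counts in the knockout against 7 and 12 counts (not called, adjusted p = 0.36).

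CCR3 rose with the knockout in H929, at 23 and 22 counts against 4 and 9 counts (2.31 ± 0.38, adjusted p = 0.000984), and in MM1S, at 123 and 87 counts against 37 and 37 counts (1.75 ± 0.26, adjusted p = 0.000176). In OPM2, CCR3 was not called in the IKZF1 knockout (-0.90 ± 0.50, adjusted p = 0.199) or the IKZF3 knockout (0.14 ± 0.41, adjusted p = 0.889). Nor was it called with lenalidomide (-0.62 ± 0.51, adjusted p = 0.594). The IKZF1 effect on CCR3 was called greater in H929 than in OPM2 (adjusted p = 0.00642) and in MM1S than in OPM2 (adjusted p = 0.0054). CCR3 and CCR1 overlap, so without strand their shared reads cannot be told apart. CCRL2, an atypical receptor, fell in H929 to 1 and 0 counts in the knockout, against 20 and 15 counts (24.1-fold, interval of 4.06 to 980, adjusted p = 0.011), but not without empty vector library 1 or knockout library b (adjusted p of up to 0.0764).

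CCL2, the main ligand of CCR2, had 215 and 29 counts in H929 knockout cells, against 2 and 0 counts with the empty vector, a ratio of 177 with an interval of 48.5 to 1470 (adjusted p = 0.00195, or 0.104 with only the compared groups). In the OPM2 IKZF1 knockout it had 8 and 62 counts, against 0 and 0 counts, at least 25.6-fold higher (adjusted p = 0.0109). The knockout libraries disagreed widely in both lines, and the OPM2 call was lost without knockout library b or either empty vector library (adjusted p of up to 0.141). With lenalidomide CCL2 had 16 and 21 counts, against 0 and 1 counts (a ratio of 47.8, interval of 8.07 to 1940), and in MM1S knockout cells 25 and 14 counts, against 1 and 2 counts (a ratio of 15.6, interval of 4.96 to 78.9), and neither was called (adjusted p = 0.0931 and 0.0746). CXCL16, the ligand of CXCR6, rose in MM1S knockout cells, at 36.1 and 31.8 CPM against 20.0 and 21.4 CPM (0.72 ± 0.20, adjusted p = 0.0171, and up to 0.128 without MM1S empty vector library 1 or 2 or knockout library a). In H929 it had 7.49 and 9.95 CPM, against 4.59 and 5.42 CPM (0.80 ± 0.23, adjusted p = 0.0396, with the call kept in 13 of 25 alternatives). CXCL16 went the other way in the OPM2 IKZF1 knockout, at 0 and 0 counts against 2 and 4 counts with the empty vector, at least 1.82-fold lower (adjusted p = 0.0279). That call was lost without any 1 of these 4 libraries, with only the compared groups and against untreated cells (adjusted p of up to 0.218). The CXCL16 effect was called greater in H929 than in OPM2 and in MM1S than in OPM2 (adjusted p = 0.0318 and 0.0224). CXCL13, the ligand of CXCR5, had 29 and 24 counts in MM1S knockout cells, against 5 and 9 counts (2.16 ± 0.48, adjusted p = 0.00692), and was not called with the DESeq2 Wald test or without MM1S empty vector library 1 (adjusted p of up to 0.172).

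**Figure D5:**
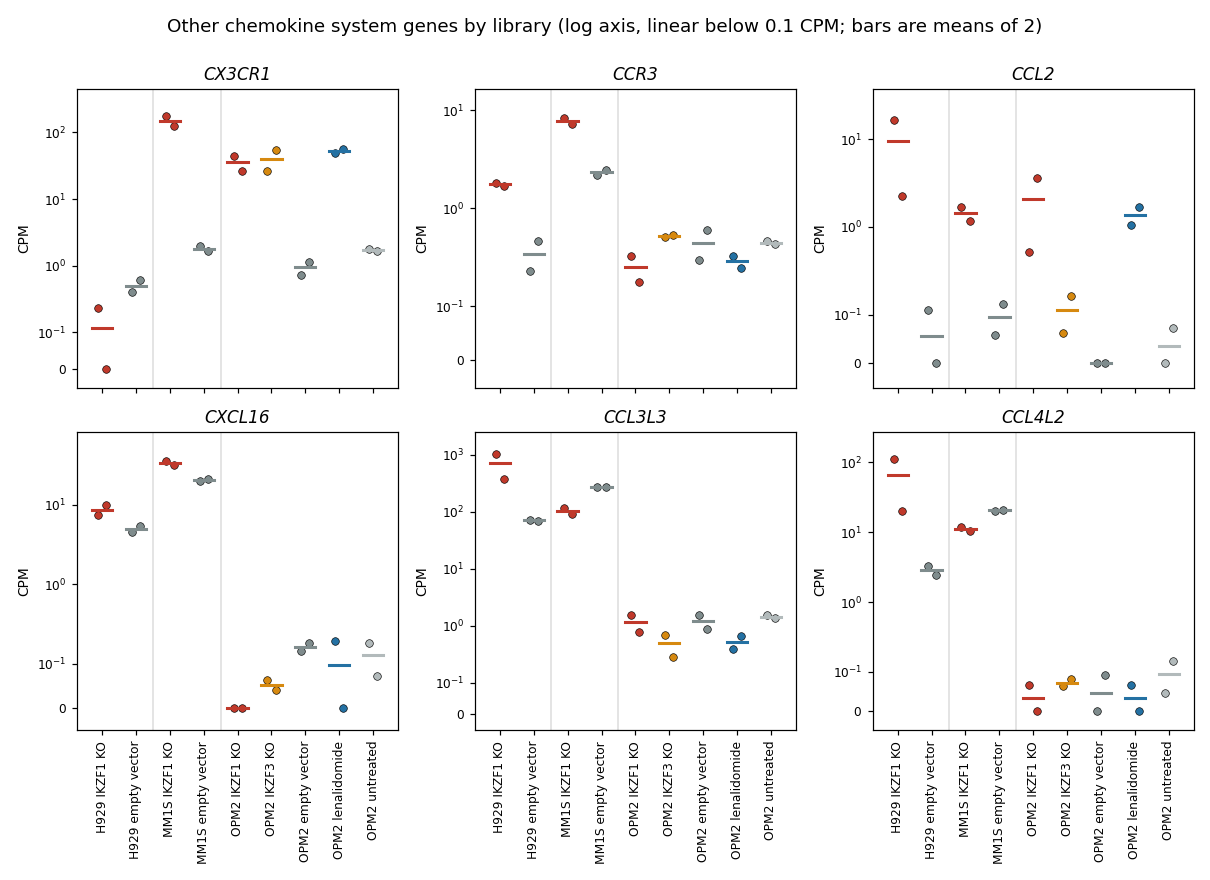
Level in CPM (log axis, linear below 0.1 CPM) of 4 other chemokine system genes and of the copies CCL3L3 and CCL4L2 in the 18 libraries. Points are single libraries and bars are the means of 2. CX3CR1 lies between 26.1 and 178.5 CPM in the MM1S and OPM2 knockouts and with lenalidomide and below 2 CPM in every control library, and CCL3L3 reaches 1042 and 374 CPM in H929 knockout cells.

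Of the signalling list, 30 of 31 genes were tested. In the H929 knockout 1 was higher and 0 lower, where 5.92% and 4.6% of all genes were. The counts were 1 and 6 in the MM1S knockout (15.6% and 12.6% of all genes) and 5 and 7 in the OPM2 IKZF1 knockout (16.2% and 20%). They were 7 and 6 in the IKZF3 knockout (16.2% and 20.6%) and 2 and 3 with lenalidomide (5.76% and 4.58%). Both directions together, the knockout counts of all 3 lines were near or below the background. RGS proteins shorten signals of G protein-coupled receptors, and RGS19 was the gene called in H929. It had 89.96 and 108.7 CPM in H929 knockout cells, against 66.5 and 71.6 CPM (0.52 ± 0.14, adjusted p = 0.0266, lost without either empty vector library or knockout library b). In MM1S knockout cells RGS19 fell to 8.42 and 11.3 CPM, against 28.7 and 26.8 CPM (-1.50 ± 0.16, adjusted p = 7.79e-06). RGS2 was lower there as well, at 20.3 and 15.2 CPM against 44.0 and 38.3 CPM (-1.21 ± 0.20, adjusted p = 0.000376), whereas RGS3 was higher, at 41.8 and 51.0 CPM against 22.3 and 21.7 CPM (1.08 ± 0.15, adjusted p = 0.000111). RGS16 was lower with lenalidomide, at 32.3 and 30.3 CPM against 90.9 and 78.2 CPM (-1.43 ± 0.20, adjusted p = 3e-04), and in the OPM2 IKZF3 knockout, at 19.6 and 26.5 CPM against 93.5 and 75.8 CPM (-1.87 ± 0.20, adjusted p = 5.1e-05). It was also called lower in the OPM2 IKZF1 knockout (-0.79, adjusted p = 0.00695). That call was lost without empty vector replicate 1 and with only the compared groups. RGS18 had 45 and 17 counts in the OPM2 IKZF1 knockout, against 0 and 0 counts with the empty vector, at least 22.7-fold higher (adjusted p = 0.0017). The IKZF3 knockout group held 40 counts of RGS18, at least 11.7-fold higher (adjusted p = 0.0045, or 0.058 with only the compared groups). With lenalidomide RGS18 had 74 and 43 counts, against 1 and 1 counts in untreated cells (a ratio of 75.6, interval of 20.5 to 632, adjusted p = 0.000987). RGS18 had almost no counts in any control group. It passed the low-count filter through the treated OPM2 groups, so its calls as higher are not independent of the filter. RGS10 was lower with lenalidomide, at 11.9 and 11.2 CPM against 18.8 and 18.5 CPM (-0.69 ± 0.17, adjusted p = 0.0178), and in the OPM2 IKZF1 knockout, at 16.7 and 15.5 CPM against 34.4 and 25.0 CPM (-0.88 ± 0.17, adjusted p = 0.00177). The OPM2 IKZF3 knockout had a similar fall of RGS10 (-0.99, adjusted p = 0.000869). PLCB3, a phospholipase C activated by these receptors, was higher with lenalidomide, at 34.5 and 30.6 CPM against 19.3 and 20.2 CPM (0.73 ± 0.18, adjusted p = 0.0189). The lenalidomide calls of RGS10 and PLCB3 were lost without any 1 of the 4 libraries compared (adjusted p of up to 0.17).

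ARRB2 (beta-arrestin 2), which uncouples activated receptors, was lower in the MM1S knockout, at 22.1 and 20.5 CPM against 33.8 and 33.1 CPM (-0.65 ± 0.17, adjusted p = 0.0118), and this call was lost without empty vector library 1 or knockout library b (adjusted p of up to 0.0892). In OPM2 cells ARRB2 had 25.8 and 25.5 CPM in the IKZF1 knockout and 18.6 and 20.9 CPM in the IKZF3 knockout, against 54.9 and 34.1 CPM with the empty vector (-0.79 ± 0.17, adjusted p = 0.00367, and -1.17 ± 0.17, adjusted p = 0.00044). PIK3CG, the catalytic subunit of phosphoinositide 3-kinase gamma, had 6.58 and 14.9 CPM in the IKZF1 knockout and 21.5 and 16.6 CPM in the IKZF3 knockout, against 1.98 and 4.06 CPM (1.77 ± 0.32, adjusted p = 0.00155, and 2.59 ± 0.31, adjusted p = 0.000112). RGS3 had 12.3 and 15.4 CPM in the IKZF3 knockout, against 7.42 and 6.03 CPM (1.06 ± 0.17, adjusted p = 0.00061). Several OPM2 calls were lost against untreated cells, and with only the compared groups in the fit (adjusted p of up to 0.793). These were the calls of ARRB2 and RGS10 in both knockouts, of PIK3CG in the IKZF1 knockout and of RGS3 in the IKZF3 knockout. The call of PIK3CG in the IKZF3 knockout held.

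Markers of other cell types were read in the same libraries. The 8 monocyte and macrophage markers summed to 5.64 and 6.13 CPM in MM1S knockout cells, against 2.00 and 2.18 CPM with the empty vector, and to at most 0.963 CPM in any H929 or OPM2 library. CD14 had 26 and 30 counts in the MM1S knockout, against 2 and 4 counts. This rise ran in the same libraries as those of CCR2 and CX3CR1, which monocytes also express, and its part in them was not tested. The 10 T and NK cell markers summed to 30.7 and 35.1 CPM in H929 knockout cells and to 46.2 and 44.4 CPM with the empty vector, to 4.35 to 5.91 CPM in MM1S and to 0 to 0.849 CPM in OPM2. In H929 most of this was CD3E, at 28.5 and 29.9 CPM in the knockout against 40.5 and 38.9 CPM, while the other CD3 chains CD3D and CD3G had at most 4 counts in a library. The 6 stromal markers summed to at most 2.32 CPM, and 3 to 5 of them were at 0 in each library. COL1A1, a collagen chain and the stromal marker that passed the filter, was called higher in 3 comparisons. It had 21 and 11 counts in H929 knockout cells against 5 and 5 counts (adjusted p = 0.0258), 17 and 22 counts in MM1S knockout cells against 3 and 2 counts (adjusted p = 0.00203), and 11 and 3 counts with lenalidomide against 0 and 1 counts in untreated cells (adjusted p = 0.028). With few counts in every control group, COL1A1 passed the low-count filter through the H929 and MM1S knockout groups. Its calls as higher in these knockouts are therefore not independent of the filter. The part of the T and NK cell and stromal markers in the chemokine results was not tested.

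Over the 9 group means, the genes whose log2 CPM followed each of the 9 most closely were picked among 10062 genes by Pearson's r. These values describe 9 groups that share lines, and no test was attached. CXCL10, CCR2, CCL4 and CCL5 had few counts in every OPM2 group, and CXCL10 and CCR2 had few in H929 as well. The r of these genes therefore rests largely on the contrast with the groups that held more counts. CXCL10 was tracked by HLA-DRB5 (r = 0.9975), CD82 and BCL2L1, CCL4 by IRF7 (0.9915), SEC16B and DENND2D, and CCR1 by DDX60 (0.9177), IFI6 (0.9165) and FAM8A1. CCL3 was nearest to CD58 (0.9925), DENND2D and GPC4, and CCL5 to MINK1 (0.9967), FBXO44 and RUSC1. CXCR4 was nearest to SPRY1 (0.991), CXCR3 to SLC12A7 (0.9904), CCR2 to SYNDIG1 (0.9942) and CCR10 to CENPV (0.9731).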

How the data were processed

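RNA was sequenced from 18 libraries of 3 cell lines. The authors deposited raw counts per Entrez gene and, separately, log2 FPKM values with each control group merged. Per the submitters' processing notes, Subread, featureCounts and limma were used with GRCh38, with no versions or settings. The main test was edgeR 4.0.16 under R 4.3.3: filterByExpr by group, TMM scaling, 1 robust quasi-likelihood fit over all 18 libraries (9 residual degrees of freedom), Benjamini-Hochberg adjustment over 14571 genes, called below 0.05. The SE comes from the fold change and the F statistic. CPM uses effective library sizes. With 2 against 2 libraries the smallest exact permutation p is 0.333, and no such test was made. Where a group had 0 counts, folds are bounds against 3 counts over the group, and ratios have 95% exact binomial intervals, which cover counting error only. Rows without a symbol (385) took 0.0122% to 0.0276% of counts. Knockout columns carry other numbers than the titles, so those libraries are called a and b. The OPM2 IKZF1 knockout columns also differ in a label letter (B for a, C for b), whereas the H929 and MM1S knockout columns all carry B. What the letter stands for is not given. Named genes are the 9, up to 4 called genes per list and comparison by smallest p, and the closest 3 by correlation. The fit was tested on simulated data. Alternatives used DESeq2 1.42.0, limma-voom (limma 3.58.1), other scalings and filters, fewer samples, and leaving out each library. One receptor of the lists is not reported here. The members and lists were chosen with earlier results of these data known.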

Additional observations from a re-analysis of the deposited data

Results flagged for a closer look

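The difference in IKZF1 knockout effect between each pair of lines was tested for the 9 genes, and 7 such tests were called. Of all genes 6.94% were called higher and 8.91% lower for H929 minus MM1S. The shares were 6.51% and 6.14% for H929 minus OPM2, and 11.8% and 8.94% for MM1S minus OPM2. The H929 effect minus the MM1S effect on the log2 scale was 5.09 ± 0.50 for CCL4 (adjusted p = 1.51e-05 by edgeR), 3.02 ± 0.43 for CCL3 (0.000229), 2.07 ± 0.34 for CCL5 (0.000804) and -1.23 ± 0.29 for CXCR3 (0.00936). For the 3 CC ligands both H929 knockout libraries lay above both H929 empty vector libraries, and both MM1S knockout libraries lay below both MM1S empty vector libraries. The H929 effect minus the OPM2 effect was 2.82 ± 0.44 for CCL3 (0.0014) and 0.72 ± 0.21 for CCR1 (0.0397). That CCR1 call was lost without any 1 of 15 libraries. The MM1S effect minus the OPM2 effect was 1.39 ± 0.25 for CCR10 (0.0022), and this count of 1 was not above the background. The differences that involve OPM2 use its empty vector group, whose libraries stood apart from each other.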

How the results depend on the processing

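Of the counts of called genes among the 9, those of MM1S (8), of IKZF1 against IKZF3 knockout (0) and of the 3 line comparisons stayed within 1.5 times under every alternative that kept all libraries. With only the compared groups fitted, 3 were called in the H929 knockout in place of 7, 0 in the OPM2 IKZF1 knockout and 0 in the IKZF3 knockout in place of 3 each, 5 with lenalidomide in place of 3, 2 for the mean IKZF1 effect in place of 4, 0 for H929 minus OPM2 in place of 2, 0 for MM1S minus OPM2 in place of 1, and 0 for empty vector against untreated cells in place of 2. Such fits have fewer samples. With no low-count filter the counts were 7 for H929 minus MM1S, 4 for H929 minus OPM2, 3 for MM1S minus OPM2 and 1 for lenalidomide minus IKZF1 knockout. Upper quartile scaling gave 1 for H929 minus OPM2. The DESeq2 Wald test gave 4, 2 and 2 for H929 minus OPM2, MM1S minus OPM2 and lenalidomide minus IKZF1 knockout. The cause of these shifts was not tested. Counts under the alternatives are given without the share of all genes, so their shifts may not be particular to the 9 genes. Leaving out 1 library at a time gave 2 to 8 in H929, 6 to 8 in MM1S, 2 to 4 in each OPM2 knockout, 2 to 5 with lenalidomide, 3 to 5 for the mean effect, 4 to 6 for H929 minus MM1S, 1 to 3 for H929 minus OPM2, 1 to 2 for MM1S minus OPM2, 0 to 4 for lenalidomide minus IKZF1 knockout, 0 to 0 for IKZF1 against IKZF3 knockout, 2 to 3 for empty vector against untreated, and 5 to 5, 6 to 7 and 7 to 9 for H929 against MM1S, H929 against OPM2 and MM1S against OPM2. The H929 count was 2 without either empty vector library or knockout library a and 4 when any 1 of the untreated or lenalidomide libraries was left out, the lenalidomide count was 5 without either OPM2 empty vector library, and the 4 for lenalidomide minus IKZF1 knockout came without OPM2 empty vector replicate 2. A left-out arm of 1 library is assumed to vary like the other groups. Of the 57 single-gene values that were called, 2 changed sign: CCR1 against untreated cells (-0.02 and -0.0446 in the OPM2 IKZF1 and IKZF3 knockouts). Of the 78 not called, 40 changed sign under some alternative, 36 of them when 1 library was left out, as CXCR4 did in the MM1S knockout (0.17 without knockout library b). In 2 the value of the other sign was called: CCR10 in empty vector against untreated cells without empty vector replicate 1 (-0.357, adjusted p = 0.0461, against 0.06 with it and 0.3742 without replicate 2) and CCL4 plus its copy in H929 against MM1S (-0.9022). Scaling moved the median of all genes by at most 0.0634.

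With a replicate block, possible only where both groups carry label numbers, 2 genes were called in empty vector against untreated OPM2 cells and 5, 7 and 8 in the line comparisons, the same counts as without it. Same-numbered libraries deviated together little (correlations of -0.0762 to 0.1235, the highest between the OPM2 empty vector and untreated groups). Such a check, mostly across lines, cannot decide whether equal numbers mark a shared culture or day. No paired analysis was possible for the other comparisons because the knockout columns carry no label number and the lenalidomide titles carry letters.

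Depth limits CCL4, CCL5, CXCL10 and CCR2 in OPM2 and CXCL10 and CCR2 in H929, where groups held 0 to 25 counts.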
